A study of Homo sapiens with 16 samples.

Results

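The response shared by 3 forms of HIF-2α was measured by setting all 12 libraries from cells transfected with a HIF-2α construct against the 4 libraries from WT cells, all 16 libraries of the series. The cells were SK-N-BE(2), a human neuroblastoma line with amplified MYCN, grown at 21% oxygen with 10% serum. The groups were WT, FL (full-length HIF-2α), NCTAD and cIDR, with 4 libraries each, and the labels place 1 library of every group in each of 4 batches. The series text writes the NCTAD and cIDR constructs as deletions of HIF-2α, and the residues removed, the vector, the hours after transfection and any mock or empty-vector treatment of the WT cells were not given in the sources used here. The effect of transfection itself and that of HIF-2α therefore cannot be told apart in any comparison with WT. Separate cultures are not stated beyond the batch, so p-values measure the spread between these libraries. EPAS1, the gene of HIF-2α, is left out of all counts because it was introduced.

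HIF-2α is the oxygen-regulated subunit of a transcription factor that pairs with ARNT. It binds short hypoxia response elements, many of which contain the letters ACGTG. At normal oxygen, prolyl hydroxylases of the EGLN family mark the protein for destruction through VHL, and at low oxygen it accumulates and raises genes of angiogenesis, glucose use and oxygen sensing. In the sympathetic lineage, from which neuroblastoma arises, HIF-2α is known for its place beside catecholamine synthesis, and mutations that stabilise it are found in paraganglioma.

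The libraries held 38.6 to 56.1 M estimated reads in genes, so that 3 counts, the limit a count of 0 allows, lay between 0.0535 and 0.0778 CPM (read counts scaled to a common library size). EPAS1 was at 13.0 to 28.1 CPM in the WT libraries and 1320 to 5852 in the transfected ones, a log2 fold change of 7.32 ± 0.38 (SE). The introduced gene was therefore high in every library labelled as transfected, though this does not tell the 3 constructs apart. EPAS1 was lowest in WT and highest in cIDR, at log2 fold changes over WT of 7.03 for FL, 7.13 for NCTAD and 7.81 for cIDR. The summed level of 8 neuroblastoma markers was 5200 to 5960 TPM (transcript abundance scaled for gene length and depth) in WT and 5370 to 6240 in transfected libraries. Markers of other cell types had overlapping ranges in the 2 sets of libraries, at 376 to 479 and 315 to 493 TPM for fibroblasts, 11.3 to 13.7 and 10.9 to 17.3 for epithelial cells, and 4.64 to 6.95 and 4.36 to 8.97 for Schwann cells. Leukocyte markers summed to 1.31 to 1.53 and 1.10 to 2.26 TPM and endothelial markers to 0.0467 to 0.438 and 0.138 to 0.610, and no marker was at 0 counts in every library. The 2 endothelial genes that passed the filter, VWF and CDH5, had log2 fold changes of 1.26 ± 0.29 and 1.44 ± 0.44 at mean WT levels of 0.274 and 0.132 CPM. Both were higher in 12 of 12 within-batch differences, with unadjusted p of 0.000601 and 0.00536, and neither was called after adjustment. The part of endothelial transcripts in the results was not tested. Of the markers of other cell types none was called. In such bulk RNA a change in the number of cells with a transcript and a change per cell cannot be told apart.

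Transfected cells had more RNA from a small set of genes, with hypoxia markers among them, and less from a still smaller one. Of 19529 genes tested, 96 passed the threshold, 0.492% of those tested, by edgeR's quasi-likelihood test with Benjamini-Hochberg adjustment (called, adjusted p under 0.05). Of these, 87 were higher, 0.445% of the tested genes, and 9 were lower, 0.0461%. At an unadjusted p under 0.05 there were 906 higher and 405 lower genes. The median log2 fold change was 0.68 for the 87 higher genes, -1.35 for the 9 lower ones and 0.01 for all tested genes. Most rises were modest: 28 of the 87 reached a log2 change of 1, 15 reached 2, and 29 stayed under 0.5. The mean level of the called genes was close to that of all tested genes, with medians of 3.38 and 3.33 log2 CPM. The count rested on the batch term and on single WT libraries. Without the replicate block only 2 genes passed, ENSG00000287521 and ENSG00000275993, and without WT replicate 1, 2 or 4 the count was 42, 52 or 55.

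**Figure D1:**
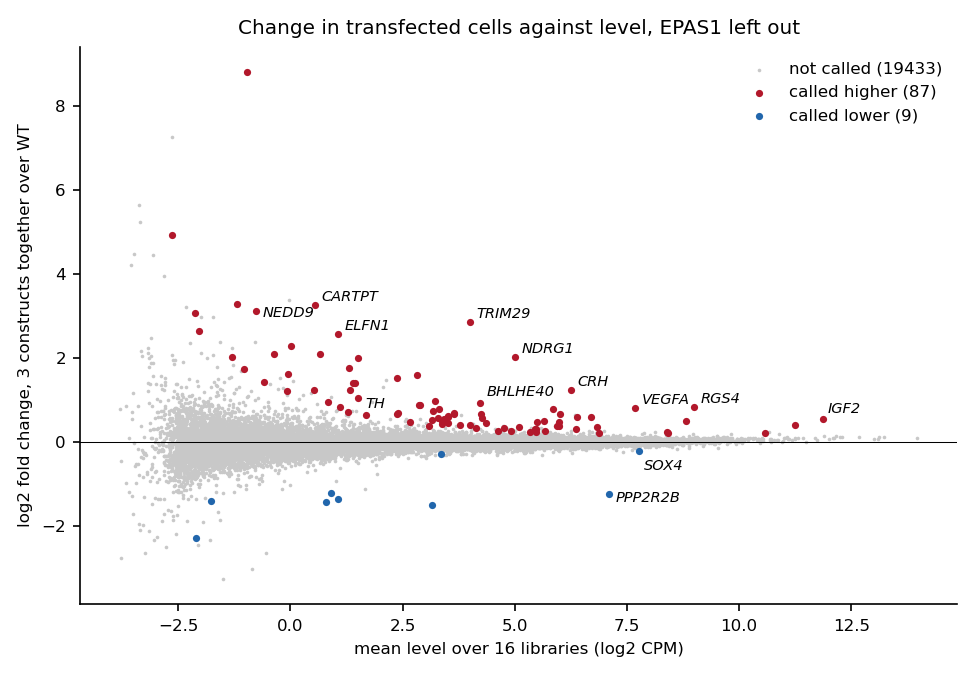
Log2 fold change of the 3 constructs together over WT (vertical axis) against the mean level over 16 libraries in log2 CPM (horizontal axis), 1 point a gene, EPAS1 left out. The 87 called higher genes in red spread over much of the range of levels, and the 9 called lower genes in blue include PPP2R2B and SOX4.

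The direction was the same across the transfected libraries for most called genes. When each transfected library was set against the WT library of its own batch, 87 of the 96 called genes kept 1 direction in 12 of 12 differences, 79 higher and 8 lower, against 1.79% of all tested genes, a measure drawn from the same contrast as the calls. The 9 others were CXCR4, ITPKB, FZD5, PFKP, NMB, SFXN3, MAD2L1BP, DDIT4 and CERS1, named here after their values were seen. The median difference of the 87 higher genes was 0.78, 0.64, 0.55 and 0.67 log2 CPM in batches 1 to 4, and all 87 had a positive mean in each batch. Across batches the levels themselves mostly overlapped. The 4 WT libraries lay below all 12 transfected ones for 11 of the 87 higher genes, a pattern held by 0.0922% of tested genes, and above all 12 for 6 of the 9 lower genes, held by 0.041%. These 17 are descriptions from the contrast that called them, and they included ADM, SLC12A3, RGMA, GDE1, FBXO40 and PPP2R2B.

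With EPAS1 left out, the gene with the smallest adjusted p in this comparison was BHLHE40, a transcriptional repressor of the hypoxia response and the circadian clock. It was at 11, 15.9, 10.7 and 9.42 CPM in WT batches 1 to 4, at 15.7, 31.7, 17.2 and 17.3 in FL, at 21.7, 29.9, 19.7 and 18.1 in NCTAD and at 24.0, 35.0, 21.7 and 20.8 in cIDR. Every transfected library was above the WT library of its batch, and the ranges touched only through FL batch 1 and WT batch 2. Its log2 fold change was 0.94 ± 0.07, 1.92-fold, with an edgeR adjusted p of 6.55e-06. Of 15 genes in a list of the hypoxia-regulated adenylate kinase, clock and phosphatase genes, BHLHE40 and AK4 rose and none fell. The list median was 0.06, and 0.445% of all tested genes were called higher. AK4, a mitochondrial adenylate kinase, was at 2.82, 27.0, 3.47 and 3.12 CPM in WT, 4.03, 32.0, 3.87 and 4.58 in FL, 7.04, 30.7, 7.60 and 7.62 in NCTAD and 15.9, 49.4, 13.0 and 11.8 in cIDR. The rise of AK4 was 0.99 ± 0.18 (log2, edgeR adjusted p 0.0202), and its call was lost without WT replicate 1, 3 or 4 or NCTAD replicate 1.

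The stretch of 250 bases before the first listed start of 3 risen genes is shown because each holds the ACGTG core. The sequences are RefSeq's, build GRCh38.p14, written in the direction of the gene, with every match to ACGTG on either strand in capitals; matches may overlap, as in CACGTG, which reads the same on both strands and counts as 2.
BHLHE40, chr3:4979187-4979436, plus strand: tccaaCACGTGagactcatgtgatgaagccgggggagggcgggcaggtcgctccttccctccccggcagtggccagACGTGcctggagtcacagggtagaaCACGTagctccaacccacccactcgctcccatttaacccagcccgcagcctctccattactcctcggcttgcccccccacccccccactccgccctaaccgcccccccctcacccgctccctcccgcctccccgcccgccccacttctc
C2CD4A, chr15:62066727-62066976, plus strand: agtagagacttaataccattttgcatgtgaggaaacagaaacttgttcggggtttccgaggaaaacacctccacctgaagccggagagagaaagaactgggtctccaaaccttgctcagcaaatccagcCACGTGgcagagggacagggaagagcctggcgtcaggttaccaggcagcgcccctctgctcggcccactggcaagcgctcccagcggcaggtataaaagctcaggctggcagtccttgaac
AK4, chr1:65147302-65147551, plus strand: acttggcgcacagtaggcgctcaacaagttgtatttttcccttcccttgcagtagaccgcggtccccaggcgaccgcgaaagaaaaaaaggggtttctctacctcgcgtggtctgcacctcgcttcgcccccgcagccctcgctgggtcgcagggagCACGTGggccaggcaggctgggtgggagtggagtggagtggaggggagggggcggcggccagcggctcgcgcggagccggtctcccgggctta
BHLHE40 held 4 matches and C2CD4A and AK4 2 each, and in the latter genes the 2 are both strands of the same CACGTG. Over the 300-base window from 250 before to 50 after the first listed start of each gene, 18 of the 61 called higher genes with a sequence had a match, 29.5%. The share was 26.4% of 11846 tested genes with a sequence and 21.6% of all 27305 genes in the table, and 1 of 5 called lower genes had a match. Counting every listed start of a gene, the shares were 36.1% of the called higher genes, 31.7% of the tested genes and 24.9% of all genes, and 3 of 5 called lower genes had a match. Only ACGTG was searched, so response elements with other letters are not counted. A match is a description of letters in this window and not of a bound site.

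Of 38 hypoxia markers tested, 10 rose and none fell, beside 0.445% higher among all tested genes, and the median of the list was 0.20 against 0.01 for all genes. The risen members were CA12, NDRG1, ADM, BHLHE40, VEGFA, SLC2A1, ZNF395, EGLN3, PFKFB4 and DDIT4. Of the 38, 37 had a positive fold change, against 53.7% of all tested genes. The lists share members, so EGLN3, BHLHE40, SLC2A1, PFKFB4 and ADM are each counted in another list too. Averaged over the 38 markers, WT libraries were at 3.26, 4.61, 3.39 and 3.41 log2 CPM. The difference from WT in batches 1 to 4 was 0.28, 0.40, 0.19 and 0.12 for FL, 0.55, 0.35, 0.40 and 0.38 for NCTAD, and 0.68, 0.63, 0.52 and 0.44 for cIDR. All 12 differences were positive, and each was smaller than the gap between WT batch 2 and any other WT library.

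VEGFA encodes the main growth factor for blood vessels. Its levels were 93.1, 312, 109 and 104 CPM in WT, 138, 479, 157 and 113 in FL, 204, 495, 258 and 227 in NCTAD and 204, 513, 196 and 190 in cIDR. Each transfected library was above its batch's WT library, by least in FL batch 4, and the batch 2 libraries were the highest of every group. The log2 fold change was 0.80 ± 0.10 (edgeR adjusted p 0.000788). NDRG1, a stress-induced gene of growth arrest and differentiation, was at 4.24, 109, 4.80 and 4.15 CPM in WT, 17.4, 210, 19.2 and 20.3 in FL, 36.7, 161, 30.5 and 27.2 in NCTAD and 52.3, 233, 38.4 and 38.4 in cIDR. Outside batch 2, no WT library exceeded 4.80 and no transfected library fell below 17.4. NDRG1 rose by 2.03 ± 0.30 (log2, edgeR adjusted p 0.00364), or by 2.76 without WT replicate 2. ADM, a vasodilator peptide, was low, at 0.960 to 1.51 CPM in WT and 1.51 to 5.65 in transfected libraries, and its WT and transfected ranges met without overlapping. ADM rose by 1.25 ± 0.19 (edgeR adjusted p 0.00432), and the adjusted p was 0.0521 without WT replicate 1. CA12, a membrane carbonic anhydrase, rose by 2.29 ± 0.37 from levels at or under 1.53 CPM in WT.

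**Figure D2:**
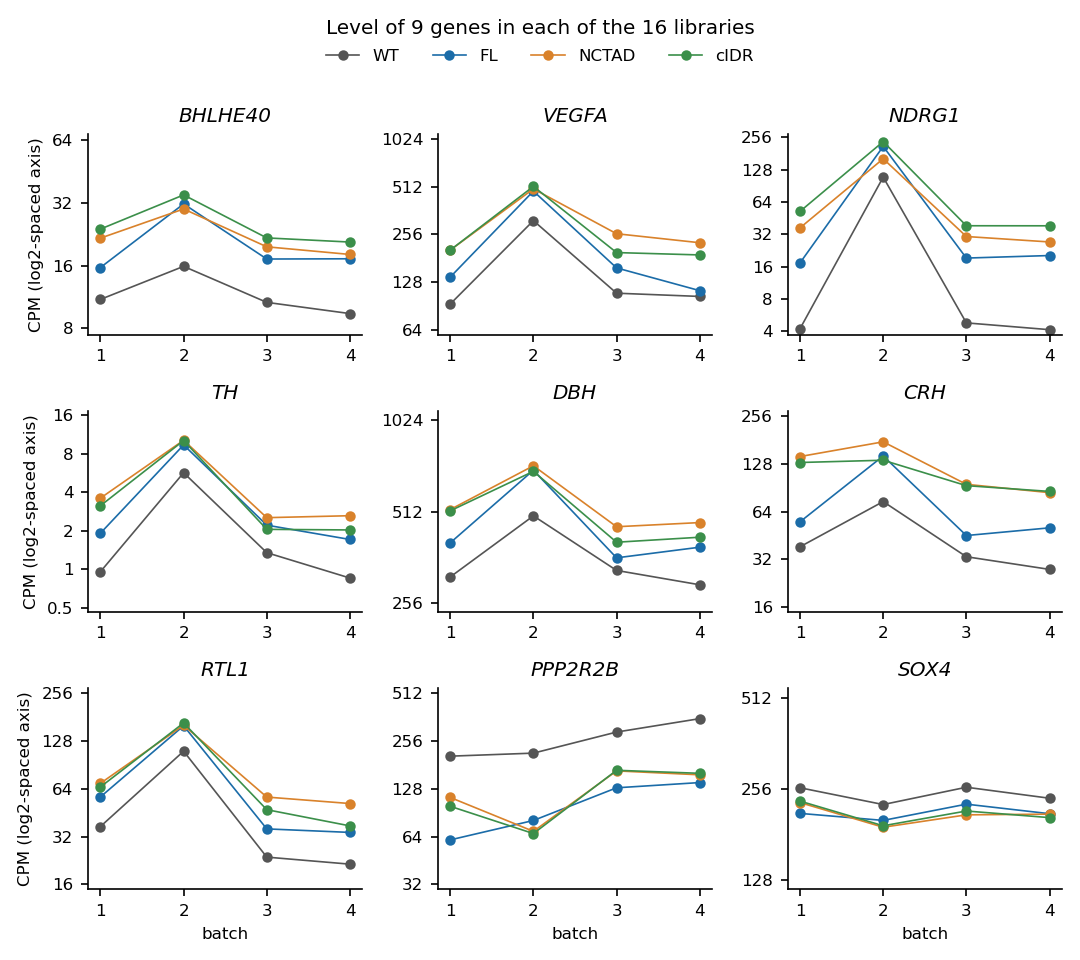
CPM on a log2-spaced axis (vertical) by batch (horizontal) for 9 named genes, 1 line a group through its 4 libraries. WT is the lowest line in the panels of the risen genes and the highest in those of PPP2R2B and SOX4, and for most risen genes batch 2 is a peak in all 4 groups.

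The oxygen-sensing machinery held 1 called gene. Of 12 HIF subunits, oxygen sensors and coactivators, EGLN3 rose and none fell, beside 0.445% higher among all tested genes. The list median was -0.01, and its highest log2 fold change, 0.475, was in a member that was not called. EGLN3, the prolyl hydroxylase that is itself a HIF target, was at 28.2, 51.8, 34.9 and 30.9 CPM in WT, 34.7, 73.7, 39.5 and 43.5 in FL, 49.5, 64.3, 44.9 and 45.3 in NCTAD and 43.2, 81.8, 44.0 and 41.8 in cIDR. The ranges overlapped through WT batches 2 and 3, with a log2 fold change of 0.47 ± 0.08 (adjusted p by edgeR 0.0102, up to 0.105 without WT replicate 1). HIF1A, the sister subunit, had a log2 fold change of -0.13 ± 0.09 and its partner ARNT one of -0.01 ± 0.05, neither called. VHL was at -0.03 ± 0.05, EGLN1 at 0.01 ± 0.08 and HIF1AN, the asparaginyl hydroxylase, at 0.01 ± 0.04. MYCN was at -0.00 ± 0.04, with 2594 to 3307 CPM in WT and 2598 to 3411 in transfected libraries.

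Of 14 tested genes in a list of HIF-2-associated genes, CXCR4, RGS4 and EGLN3 rose and none fell. The list median was 0.20, and 0.445% of all tested genes were called higher. CXCR4, a chemokine receptor, was at 0.894 to 1.98 CPM in WT and 1.37 to 8.13 in transfected libraries, with overlap in cIDR batches 3 and 4. Its log2 fold change was 1.40 ± 0.28 (edgeR adjusted p 0.0377), and its call was lost when any 1 of 10 libraries was left out, WT replicates 1, 2 and 4 among them. RGS4, a brake on G-protein signalling, rose by 0.83 ± 0.09 from 305, 585, 268 and 261 CPM in WT to 378, 885, 393 and 426 in FL, 706, 884, 539 and 543 in NCTAD and 627, 1126, 511 and 484 in cIDR. Of this list, FLT1 was at 0.56 ± 0.19 (edgeR adjusted p 0.443) and CCND1 at -0.01 ± 0.05, neither called.

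Of 23 genes of glycolysis, glucose uptake and lactate export, 5 rose and none fell, beside 0.445% higher among all tested genes. All 23 had a positive fold change, against 53.7% of all tested genes, and the median was 0.13. SLC2A1, the glucose transporter GLUT1, was at 52.0, 58.3, 74.6 and 64.8 CPM in WT, 61.9, 102, 87.3 and 92.1 in FL, 102, 82.4, 115 and 116 in NCTAD and 81.6, 108, 90.4 and 87.2 in cIDR. Only FL batch 1 lay inside the WT range, and the change was 0.59 ± 0.11 (log2, edgeR adjusted p 0.0192). Unlike most risen genes, SLC2A1 was not highest in batch 2 in WT. HK2, which traps glucose as its phosphate, rose by 0.32 ± 0.07 (edgeR adjusted p 0.0493), PFKFB4, which makes the activator of phosphofructokinase, by 0.45 ± 0.06 and ALDOA, the muscle-type aldolase, by 0.22 ± 0.04. PFKP, platelet-type phosphofructokinase, rose by 0.40 ± 0.07, in 11 of 12 differences. LDHA at 0.09 ± 0.05, ENO1 at 0.10 ± 0.05 and PDK1 at 0.33 ± 0.10 (edgeR adjusted p 0.333) were not called. The call of SLC2A1 was lost without WT replicate 1, 2 or 4 and that of PFKP without WT replicate 1 or 4. ALDOA lost its call in 9 of the 16 fits that left out 1 library: WT replicates 1, 2 and 4, FL replicate 2, NCTAD replicates 3 and 4, and cIDR replicates 2, 3 and 4.

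The called adrenergic markers were 4 genes of catecholamine synthesis and storage. Of 22 adrenergic neuroblastoma markers, TH, DDC, DBH and SLC18A1 rose and none fell, beside 0.445% higher among all tested genes. The median of the list was 0.03, and 16 of the 22 had a positive fold change, against 53.7% of all tested genes. TH, the rate-limiting enzyme, was at 0.960, 5.68, 1.35 and 0.856 CPM in WT, 1.92, 9.36, 2.21 and 1.71 in FL, 3.60, 10.2, 2.53 and 2.62 in NCTAD and 3.14, 10.1, 2.05 and 2.03 in cIDR. TH rose by 1.05 ± 0.15 (log2, edgeR adjusted p 0.00289). DDC, which makes dopamine, rose by 0.24 ± 0.04, and its call was lost without WT replicate 1, 2 or 4. DBH, which turns dopamine into noradrenaline, was at 311, 495, 327 and 293 CPM in WT, 404, 701, 360 and 390 in FL, 520, 725, 456 and 471 in NCTAD and 515, 695, 405 and 421 in cIDR, a rise of 0.49 ± 0.06 (log2, edgeR adjusted p 0.000481). SLC18A1, the vesicular monoamine transporter VMAT1, rose by 0.61 ± 0.07, from 59.3 to 109 CPM in WT to 91.5 to 174 in transfected libraries. For DBH and SLC18A1, the batch 2 WT library alone lay within the transfected range. The lineage factor HAND2 at 0.05 ± 0.05, and the transporters SLC18A2 at 0.35 ± 0.10 (edgeR adjusted p 0.275) and SLC6A2 at -0.03 ± 0.04, were not called. Of 13 mesenchymal neuroblastoma markers none was called in either direction (median -0.13), and SOX9 was at -0.13 ± 0.06.

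Of 14 tested neuropeptides and peptide hormones, CARTPT, CRH and ADM rose and none fell, beside 0.445% higher among all tested genes. The median of the list was 0.12. CRH, corticotropin-releasing hormone, was at 38.4, 73.9, 33.2 and 27.6 CPM in WT, 55.1, 143, 45.2 and 50.5 in FL, 142, 176, 95 and 84.2 in NCTAD and 130, 135, 93.2 and 85.7 in cIDR. Every NCTAD and cIDR library was above every WT library, whereas 3 of the FL libraries lay inside the WT range, and the log2 fold change was 1.25 ± 0.14 (edgeR adjusted p 0.00043). CARTPT, precursor of the CART peptides, was near the floor in 3 of the 4 WT libraries, at 0.0209, 3.85, 0.0724 and 0 CPM, and reached 8.99 CPM outside batch 2 and 21.8 in it. The fold change was 3.25 ± 0.53 (log2) and moved between 2.76 and 6.02 on omission of 1 library, the highest without WT replicate 2. VIP at -0.22 ± 0.05 (edgeR adjusted p 0.0742) and NPY at -0.05 ± 0.07 were not called.

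**Figure D3:**
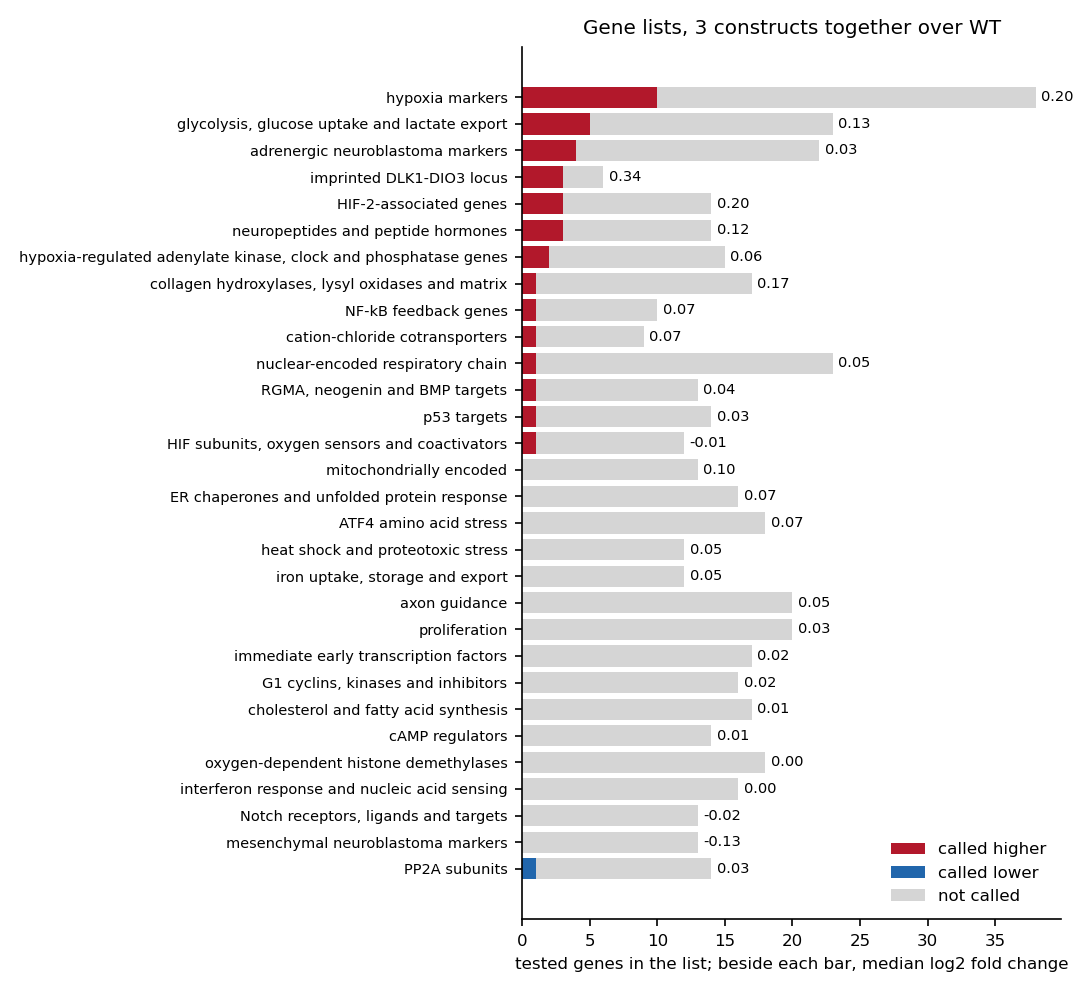
Tested genes of each list (bar length) with the number called higher in red and called lower in blue, and the median log2 fold change of the 3 constructs over WT printed beside each bar. Hypoxia markers hold 10 of 38 called higher, and 15 lists hold no called gene.

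All 6 tested genes of a list for the DLK1-DIO3 region on chromosome 14 had positive fold changes, against 53.7% of all tested genes. Their median was 0.34, and DLK1, RTL1 and DIO3 rose, beside 0.445% higher among all tested genes. DIO3OS, a tested gene of the region outside that list, was at 1.45 ± 0.37 (edgeR adjusted p 0.171) and higher in 11 of 12 differences. RTL1, a paternally expressed gene derived from a retrotransposon, was at 37.0, 110, 23.7 and 21.4 CPM in WT, 56.9, 160, 35.8 and 34.0 in FL, 69.3, 161, 56.7 and 51.6 in NCTAD and 65.7, 166, 47.2 and 37.3 in cIDR. RTL1 rose by 0.79 ± 0.08 (log2, edgeR adjusted p 0.000363). DLK1, a Notch-family ligand, rose by 0.42 ± 0.07 and DIO3, which inactivates thyroid hormone, by 1.24 ± 0.22, the first losing its call without WT replicate 1, 2 or 4 and the second without WT replicate 1, 2 or 3. The non-coding MEG3 at 0.24 ± 0.26 and MEG8 at 0.21 ± 0.10 were not called. On chromosome 11, IGF2, IGF2-AS and TH all rose, genes chosen for naming after their values were seen. IGF2, a fetal growth factor, was at 2656, 6436, 1981 and 1854 CPM in WT, 2931, 8917, 2408 and 2135 in FL, 4661, 9250, 3628 and 3592 in NCTAD and 4038, 9585, 2746 and 2696 in cIDR, with a log2 fold change of 0.54 ± 0.07 (adjusted p by edgeR 0.00205). H19, its imprinted neighbour, was at 0.66 ± 0.20 and higher in 12 of 12 differences, but its edgeR adjusted p was 0.352.

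IGF2 and TH are separated by 14363 bases in RefSeq's GRCh38.p14 annotation, and other called genes were neighbours too. Of 93 called genes with a position, 14 had another called gene within 100000 bases, 15.1%, against 1.67% of the 16732 tested genes that were not called. The groups of neighbours were RGS16 with RGS8, IGF2 with IGF2-AS and TH, and WT1 with WT1-AS. Further groups were RSPH9 with MAD2L1BP on 1 side and VEGFA on the other, C8orf58 with PDLIM2, and AGPAT2 with EGFL7. All were found after the calls were known. WT1, a zinc-finger factor, was at 5.47 to 10.8 CPM in WT and 6.81 to 18.6 in transfected libraries, a rise of 0.58 ± 0.08 (log2, edgeR adjusted p 0.00289). IGF2-AS overlaps IGF2, WT1-AS overlaps WT1, and on chromosome 14 RTL1 overlaps MEG8. The kit was stranded, but whether counting used the strand was not given in the sources used here, so reads of each such pair may be shared.

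Among called genes with a mean of at least 1 log2 CPM, the 10 largest rises included further genes outside these lists. TRIM29, a TRIM-family protein of epithelial and DNA damage biology, was at 1.32, 19.1, 2.24 and 1.32 CPM in WT, 16.4, 92.1, 16.2 and 18.7 in FL, 19.2, 40.1, 17.7 and 18.3 in NCTAD and 34.5, 71.8, 26.2 and 27.7 in cIDR. Outside batch 2 the transfected libraries were at 16.2 or more and WT at 2.24 or less, and the log2 fold change was 2.86 ± 0.33 (edgeR adjusted p 0.000481), or 3.71 without WT replicate 2. ELFN1, a synaptic adhesion protein, rose by 2.57 ± 0.32 from 0.146 to 2.31 CPM in WT to 1.24 to 11.7. C2CD4A, a nuclear C2-domain protein, rose by 2.01 ± 0.23, from 1.06, 4.00, 0.362 and 0.461 CPM in WT to 1.13 to 14.9. SLC12A3, the thiazide-sensitive sodium-chloride cotransporter, rose by 1.76 ± 0.19 and did not overlap, at 0.480 to 1.30 CPM in WT and 1.71 to 7.40 in transfected libraries. It was the 1 called of 9 cation-chloride cotransporters, whose median was 0.07, beside 0.445% of all tested genes called higher.

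CABP7, a calcium-binding protein, was at 0.772, 23.0, 0.917 and 0.988 CPM in WT and at 2.99 to 5.16 outside batch 2 and 38.3 to 46.4 within it in transfected libraries. It rose by 1.53 ± 0.19 (edgeR adjusted p 0.00128). EGFL7, a protein secreted around vessels, rose by 1.59 ± 0.21, and its WT batch 2 library at 14.5 CPM lay above 8 of the 12 transfected ones. NXPH4, a neurexophilin, was at 0.209, 23.5, 0.217 and 0.373 CPM in WT and 1.05 to 41.8 in transfected libraries. Its log2 fold change of 1.41 ± 0.29 had an edgeR adjusted p of 0.0497 and lost the call in 13 of the 16 fits that left out 1 library, WT replicates 1, 3 and 4 among them. Without WT replicate 2 the value for NXPH4 was 2.74. AQP10, a water and glycerol channel, rose by 0.78 ± 0.10 (edgeR adjusted p 0.00091), from 5.36 to 8.47 CPM in WT to 7.05 to 20.4.

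Single members of other lists also rose. COX4I2, the hypoxia-associated form of a cytochrome oxidase subunit, rose by 2.10 ± 0.33, the 1 called of 23 nuclear-encoded respiratory chain genes (median 0.05), with an adjusted p of 0.069 without WT replicate 1 and a log2 fold change of 2.91 without WT replicate 2. TNIP1, a brake on NF-kB signalling, rose by 0.38 ± 0.05, the 1 called of 10 NF-kB feedback genes (median 0.07). TNFRSF10B, a death receptor for TRAIL, rose by 0.68 ± 0.10, the 1 called of 14 p53 targets (median 0.03). LOXL3, a lysyl oxidase of collagen cross-linking, rose by 0.44 ± 0.08, the 1 called of 17 collagen and matrix genes (median 0.17), and missed the threshold without WT replicate 1 or 2. RGMA, a guidance molecule and BMP co-receptor, rose by 0.88 ± 0.16, from 4.06 to 5.72 CPM in WT to 6.19 to 15.7, the 1 called of 13 RGMA, neogenin and BMP genes (median 0.04), and missed the threshold without WT replicate 1, 2 or 4. For each of these lists no member fell, and 0.445% of all tested genes were called higher.

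The falls were fewer. PPP2R2B, a neuronal regulatory subunit of the phosphatase PP2A, was at 205, 215, 291 and 354 CPM in WT, 61.0, 80.8, 130 and 140 in FL, 113, 69.0, 166 and 157 in NCTAD and 99.3, 66.8, 167 and 160 in cIDR. No transfected library reached the lowest WT library. PPP2R2B fell by 1.23 on the log2 scale (SE 0.11, edgeR adjusted p 4.63e-05). It was the 1 called of 14 PP2A subunits, whose median was 0.03, beside 0.0461% of all tested genes called lower. SOX4, a transcription factor of neural progenitors, fell by 0.21 (SE 0.04, edgeR adjusted p 0.0151), from 227 to 259 CPM in WT to 191 to 233, and missed the threshold without any 1 of the 4 WT libraries. CERS1, a ceramide synthase, fell by 0.28 (SE 0.06), with 3 FL libraries above their WT library, and lost its call in 13 of 16 fits that left out 1 library. FBXO40, a muscle F-box protein, fell by 1.42 (SE 0.21) and VAX1, a forebrain homeobox factor, by 1.40 (SE 0.28), both named after their values were seen. The immunoglobulin segment IGKV2-30 fell by 1.35 (SE 0.18, edgeR adjusted p 0.00214), and like the pseudogenes DNM1P41 and MARK2P13 it has near-identical copies, so its count is uncertain.

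Many lists held no called gene, beside 0.492% of all tested genes called in either direction. None was called of 18 oxygen-dependent histone demethylases (median 0.00), where KDM3A was at 0.21 ± 0.05 with an edgeR adjusted p of 0.064. Of 16 interferon and nucleic acid sensing genes none was called (median -0.00), with STING1 at 0.40 ± 0.21 and IFIT1 at -0.17 ± 0.19. Stress lists held none of 12 heat shock genes (median 0.05), none of 18 ATF4 genes (0.07) and none of 16 chaperones of the endoplasmic reticulum (0.07), where HSPA5 was at 0.14 ± 0.04. None was called of 17 immediate early factors (median 0.02), where KLF4 was at 0.78 ± 0.26 and higher in 12 of 12 differences with an edgeR adjusted p of 0.424. Growth lists held none of 20 proliferation genes (median 0.03) and none of 16 G1 genes (0.02), where CDKN1C was at 1.71 ± 0.40 with an edgeR adjusted p of 0.101. None was called of 13 Notch genes (median -0.02), 14 cAMP regulators (0.01), 12 iron genes (0.05), 17 genes of cholesterol and fatty acid synthesis (0.01), 13 mitochondrially encoded genes (0.10) or 20 axon guidance genes (0.05). PDE4C, of the cAMP list, was at 0.72 ± 0.16 with an edgeR adjusted p of 0.0743.

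In a test among FL, NCTAD and cIDR with 2 degrees of freedom, 52 of the 96 called genes had an unadjusted p under 0.05, beside 2.94% of all tested genes, and 1 gene, PFKP, passed after adjustment. PFKP was at 7.22, 33.0, 8.64 and 7.53 CPM in WT, 8.81, 35.5, 9.31 and 8.42 in FL, 8.45, 32.9, 9.66 and 8.86 in NCTAD and 17.5, 55.2, 13.8 and 14 in cIDR. Its log2 fold changes were 0.16, 0.15 and 0.89, with an edgeR adjusted p among constructs of 0.00368, and cIDR had the largest rise in every batch. The smallest of the 3 rises was in FL for 56 of the 87 higher genes, in cIDR for 18 and in NCTAD for 13, and the median rise was 0.50 in FL, 0.70 in cIDR and 0.80 in NCTAD. All 3 share the WT libraries. FL also had the lowest fold change of EPAS1, and its part in the sizes was not tested. The pooled count was 198 without the FL libraries, 45 without NCTAD and 38 without cIDR.

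Differences in size took more than 1 form. In FL, NCTAD and cIDR in turn, AK4 had log2 fold changes of 0.33, 0.90 and 1.73 and TNIP1 of 0.21, 0.31 and 0.61, both largest in cIDR, with unadjusted p among constructs of 2.28e-05 and 1.6e-05. C2CD4A had its largest rise in NCTAD, at 1.98, 2.69 and 1.35 (p 0.000189), as did VEGFA at 0.47, 1.05 and 0.89 (p 0.000412). AQP10 was at 0.40, 0.99 and 0.96 and CRH at 0.72, 1.57 and 1.45, with FL lowest (p 0.000118 and 0.000199). CERS1 was at 0.00, -0.49 and -0.36 (p 1.55e-05), and its call was lost without NCTAD and without cIDR. None of these other genes passed after adjustment over all genes.

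Called genes with 12 of 12 differences in 1 direction and an unadjusted p of at least 0.05 among constructs numbered 42, 35 higher and 7 lower, and are called here the common response. A p that misses this limit does not show that the constructs act alike. Among hypoxia and glycolysis genes the 42 included ADM, SLC2A1, EGLN3 and HK2, and among catecholamine genes TH and SLC18A1. Near the limit were TH (0.83, 1.27 and 1.06 in FL, NCTAD and cIDR), ADM (0.94, 1.34 and 1.47) and NXPH4 (1.18, 1.19 and 1.86). Their unadjusted edgeR p among constructs was 0.0516, 0.0552 and 0.0753. The 3 fold changes of SLC18A1 were 0.53, 0.59 and 0.70 in FL, NCTAD and cIDR, those of EGLN3 0.38, 0.51 and 0.51, and those of CABP7 1.38, 1.71 and 1.49. Others were TRIM29, SLC12A3, NXPH4, SLC6A19, an amino acid transporter, and AQP1, a water channel. NEDD9, a scaffold of focal adhesions, was at 0.0626, 0.503, 0.0483 and 0 CPM in WT and 0.477 to 3.72 in transfected libraries, with an edgeR adjusted p of 0.00291, named after its values were seen. On the falling side PPP2R2B was at -1.41, -1.12 and -1.17 and SOX4 at -0.20, -0.22 and -0.21.

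**Figure D4:**
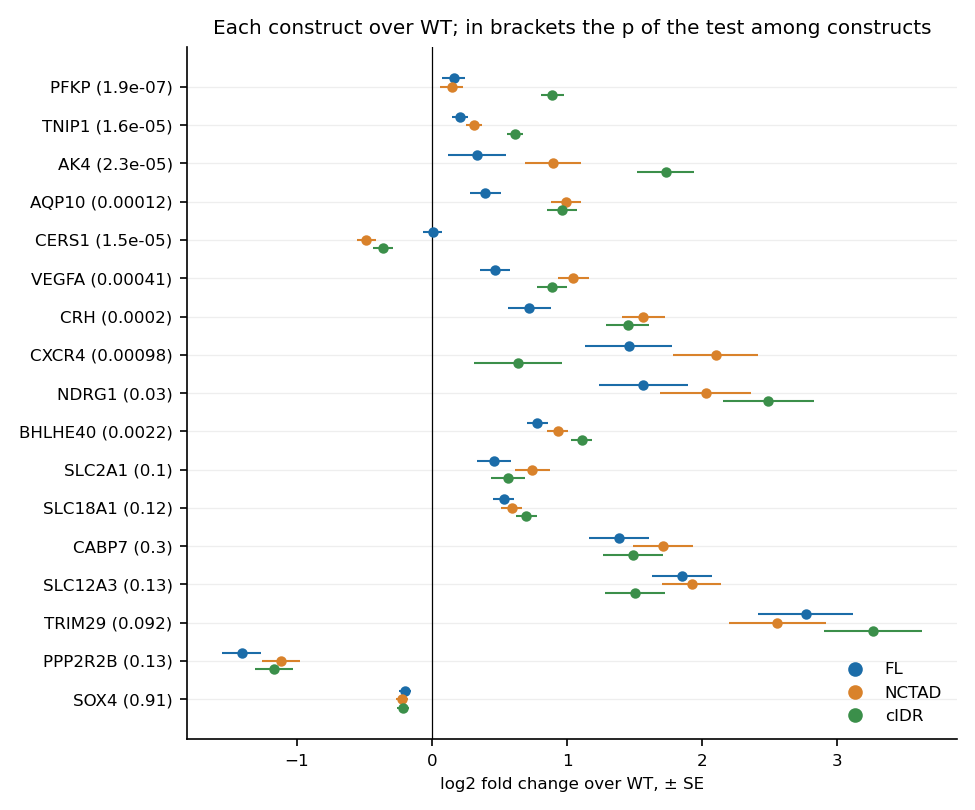
Log2 fold change over WT in FL, NCTAD and cIDR (horizontal axis, points with SE bars) for 17 called genes (rows), with the unadjusted p among constructs in brackets. PFKP, TNIP1 and AK4 reach furthest in cIDR, and the points of SOX4 lie together at -0.20 to -0.22.

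The risen genes were also those in which WT cells differed between batches. In the WT library of batch 2, 72 of the 87 higher genes (82.8%) were above the other 3 WT libraries, against 38.7% of all tested genes, and the median gap was 0.97 log2 CPM against 0.03. The gap reached 109 against a mean of 4.40 CPM for NDRG1, 23.0 against 0.892 for CABP7 and 5.68 against 1.06 for TH. It was absent for SLC2A1, at 58.3 against 63.8 CPM, and PPP2R2B was lower, at 215 against 284. The fold changes are set within batches, and 55 genes were called without batch 2 and 58 without batch 1. The part of the batches' state in the response was not tested.

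Of the 3 called genes without a symbol in the files, ENSG00000287521 and ENSG00000275993 have uncertain counts. The other, ENSG00000205037, rose by 1.74 ± 0.34 (log2, edgeR adjusted p 0.0351). Its WT batch 2 library was at 1.69 CPM, against a mean of 0.053 in the other WT libraries. ENSG00000287521 had 0 reads in all 4 WT libraries and 22 to 123 in each transfected one, and whether it shares reads with the introduced EPAS1 sequence was not tested. ENSG00000275993, the SIK1B gene, was at 12.3, 13.2, 13.2 and 15 CPM in WT and 16.6 to 25.4 in transfected libraries, with a log2 fold change of 0.66 ± 0.07 (adjusted p by edgeR 0.000363). It is a near-identical copy of SIK1, a kinase induced by cAMP, which was at 0.64 ± 0.23 with an edgeR adjusted p of 0.54, so reads may have been split between them.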

How the data were processed

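RNA was measured in 16 libraries of SK-N-BE(2) cells (poly(A) selection, stranded kit). The authors deposited estimated counts and TPM per gene for 63187 genes. The submitters' processing notes name fastp, STAR, Salmon and featureCounts and the build GRCh38, without roles or versions. Estimated counts were rounded (15.5% of the deposited count values were not whole).

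Genes passing filterByExpr by group (19530) were fitted with edgeR 4.0.16 in R 4.3.3 (TMM factors, quasi-likelihood test, group and batch terms). The contrast was the mean of FL, NCTAD and cIDR minus WT, and a second test compared the 3 constructs. Adjusted p-values are Benjamini-Hochberg over all tested genes, with a threshold of 0.05. Log2 CPM used a prior count of 2. DESeq2 1.42.0 and limma 3.58.1 on log2(TPM + 1) and log2(TPM + 0.1) were alternatives, TPM being the authors' deposited values. The test was tried on simulated data first.

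The labels give the replicate number as the batch. Deviations from the group means correlated with a mean of 0.308 (0.0674 to 0.712) over 24 pairs of libraries of 1 batch and -0.0945 over 72 other pairs. No 2 libraries of a group agreed within counting noise (chi-square per degree of freedom at least 6.71).

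Named genes were, among called genes with a mean of at least 1 log2 CPM and 12 of 12 differences in 1 direction, the 10 largest rises, 6 largest falls and 6 smallest adjusted p, up to 4 called members of each list, HIF1A, ARNT and MYCN, and the 5 called genes with the smallest p among constructs. The members, gene lists and rules were chosen with earlier results of these data known. Neighbours, promoter motifs and the WT batch 2 comparison were chosen after seeing the data. Some genes that entered the fit and the counts are not reported here by name.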

Additional observations from a re-analysis of the deposited data

Results flagged for a closer look

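Among within-batch differences from WT (log2 CPM), 8 of 117 sets of 4 batches held a library far from the other 3 by Dixon's 95% limit, 6.84%, where chance gives about 1 in 20. AK4 in NCTAD was 0.1849 in batch 2 and 1.12 to 1.308 in the others. CABP7 in NCTAD was lowest in batch 2, at 0.7365. C2CD4A stood apart in batch 3 in FL, at 2.411, and in cIDR, at 2.126. BHLHE40 in cIDR was 1.025 in batch 3, below 1.119 to 1.137. SOX4 in FL was -0.2808 in batch 1, TNFRSF10B in cIDR 1.182 in batch 1, and TNIP1 in FL 0.02324 in batch 3. By the same limit 55 of 228 sets of CPM levels held such a library, and it was a batch 2 library in 51. PFKP differed among the 3 constructs, with an edgeR adjusted p of 0.00368.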

How the results depend on the processing

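All 96 called genes kept their direction without the replicate block, without batch 1 or 2 and without each construct. The count of called genes was 2 without the replicate block (299 at an unadjusted p under 0.05), 181 with DESeq2, 163 with no low-count filter, 40 and 49 with limma on log2(TPM + 1) and log2(TPM + 0.1), 58 without batch 1, 55 without batch 2, and 198, 45 and 38 without FL, NCTAD and cIDR. Leaving out 1 library gave 42 (without WT replicate 1; 52 and 55 without WT replicate 2 and 4) to 128 (without FL replicate 1). Genes differing among constructs numbered 1, but 0 without the replicate block, 48 with no low-count filter, 7 with at least 10 counts in every library, 0 with either TPM fit and 14 without batch 2, and 1 to 9 (without FL replicate 2) when 1 library was left out, with 3 without WT replicate 3 and 5 without cIDR replicate 2. With no limit on the test among constructs, the common response numbered 87 in place of 42. Of 39 called genes named by rule, 0 were called without the replicate block, 26 with a single term for transfected against WT (64 genes in all), 23 and 24 with the TPM fits and 39 with DESeq2. The causes were not tested. Depth limits genes near the floor, such as CARTPT and NEDD9 in the WT libraries other than batch 2.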
